A study of Mus musculus with 42 samples.

Results

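Mast cell genes were described in tumours grown under the skin from Pan02 (PanO2 in the sample titles), a mouse pancreatic adenocarcinoma line, during treatment with BXCL701. The genes were the rows of the deposited gene table whose symbol is Kit, Cpa3, Mcpt4, Tpsb2, Cma1, Fcer1a, Ms4a2, Hdc or Gata2. All 9 were found among the 47729 genes of the table, and all 9 were among the 16613 genes tested, those with 3 or more libraries at 10 or above. The rule used their symbols and no measured value.

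Mast cells arise from bone marrow progenitors and complete their maturation in tissues, where they are most often found in skin, mucosa and connective tissue. Their survival depends on the receptor tyrosine kinase KIT and its ligand stem cell factor. Crosslinking of antigen-bound IgE on the high-affinity receptor FcεRI releases their granules, which hold histamine, heparin, tryptases, chymases and carboxypeptidase. In mice the connective tissue type of mast cell is marked by MCPT4, CMA1, TPSB2 and CPA3, whereas MCPT1 and MCPT2 mark the mucosal type.

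The series was designed to follow how inhibition of dipeptidyl peptidases alters the immune makeup of tumours over time. BXCL701, also known as talabostat, inhibits DPP4, DPP8, DPP9 and fibroblast activation protein. The 42 libraries came from the tumours of 42 C57BL/6 mice, 3 in each of 14 groups. All mice carried Pan02 tumours in the right flank, and the labels of these groups name no other agent. Vehicle, given as PBS, was represented by tumours taken at 0 h on day 1, day 7 and day 14. Mice given BXCL701 by oral gavage, at 20 ug per mouse each day (a single dose for day 1), were sampled on the same 3 days. The dose is the value in the labels, although the name of that field gives the unit as mg/kg. The labels give their harvest times as 0, 1, 8 or 16 h, except that day 1 has no 0 h group for BXCL701. Vehicle was not analysed here at the later hours, so every comparison that includes them holds treatment and hour together. The age of the mice is not given in the sources used here. Each library came from a different animal, so the spread within a group is between animals. In RNA from whole tumours, fewer mast cells and less RNA per mast cell cannot be told apart.

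The summed values of the libraries lay between 19133100 and 26633400, and median-of-ratios size factors lay between 0.919 and 1.10. These are scaled estimates, and the number of reads behind them is unknown. Markers of skin and of neighbouring tissue varied widely, and the summed value of 12 keratinocyte genes ran from 680 to 26142. Libraries also differed in the balance of long and short transcripts. A transcript-length index ran from -0.41 to 0.33. It is the slope, within a library, of gene deviations on log2 exon length, and is positive where long transcripts are high. No pair of libraries was near-identical, with correlations between libraries of 0.871 to 0.981.

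The genes lie on 8 chromosomes (GENCODE M21 on GRCm38), and only Mcpt4 and Cma1 share one. Mcpt4 (chr14:56059629-56062313, minus strand) and Cma1 (chr14:55941451-55944675, minus strand) encode chymases and lie in the same cluster of granule protease genes. Cpa3 (chr3:20215620-20242181, minus strand) encodes the mast cell carboxypeptidase, and Tpsb2 (chr17:25366305-25369098, plus strand) encodes a tryptase. Fcer1a (chr1:173221284-173227214, minus strand) and Ms4a2 (chr19:11615523-11623719, minus strand) encode the alpha and beta chains of FcεRI. Hdc (chr2:126593667-126619299, minus strand) encodes histidine decarboxylase, which makes histamine. Kit (chr5:75574916-75656722, plus strand) encodes the receptor for stem cell factor, and Gata2 (chr6:88193891-88207032, plus strand) encodes a transcription factor of mast cells and of other blood and endothelial cells. The deposited table gives 1 value per gene, and no exon was measured separately.

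Promoter sequences are shown for Cpa3, Mcpt4, Cma1 and Ms4a2 because they hold, in the 250 bases before the start, letters that GATA factors such as GATA2 are known to bind. The sequences are from RefSeq on GRCm38.p6, written 5′ to 3′ on the strand of the gene, and capitals mark GATAA or its reverse complement TTATC.
Cpa3, chr3:20242182-20242431, minus strand: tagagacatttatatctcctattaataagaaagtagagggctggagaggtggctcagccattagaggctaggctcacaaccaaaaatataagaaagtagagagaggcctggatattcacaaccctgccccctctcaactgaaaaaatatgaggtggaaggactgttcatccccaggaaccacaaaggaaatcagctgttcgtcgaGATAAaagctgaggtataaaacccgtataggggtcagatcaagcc
Mcpt4, chr14:56062311-56062560, minus strand: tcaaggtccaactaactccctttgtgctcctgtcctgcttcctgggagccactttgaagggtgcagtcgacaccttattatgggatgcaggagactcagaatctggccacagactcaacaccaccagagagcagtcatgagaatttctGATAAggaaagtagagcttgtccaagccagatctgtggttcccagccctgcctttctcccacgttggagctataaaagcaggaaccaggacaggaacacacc
Cma1, chr14:55944676-55944925, minus strand: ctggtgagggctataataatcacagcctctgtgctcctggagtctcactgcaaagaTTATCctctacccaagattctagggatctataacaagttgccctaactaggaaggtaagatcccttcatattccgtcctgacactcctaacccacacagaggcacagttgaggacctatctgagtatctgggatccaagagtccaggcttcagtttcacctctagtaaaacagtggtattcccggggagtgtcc
Ms4a2, chr19:11623720-11623969, minus strand: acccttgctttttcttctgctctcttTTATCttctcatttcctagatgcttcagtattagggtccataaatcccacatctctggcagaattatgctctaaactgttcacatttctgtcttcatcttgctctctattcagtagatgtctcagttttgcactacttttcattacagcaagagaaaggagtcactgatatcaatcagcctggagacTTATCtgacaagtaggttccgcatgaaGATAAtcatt
The match lies 45 bases before the start in Cpa3, 102 in Mcpt4 and 194 in Cma1, and Ms4a2 has 3 matches. Of the 8 genes with a promoter in the table, 5 held GATAA on either strand, with Fcer1a, whose RefSeq start matched no GENCODE transcript, as the other one. The same letters occurred in 22.6% of the 32851 promoter windows of that length, which are not of matched base composition. The motif CACGTG, on both strands, occurred in none of the 8 and in 6.02% of all windows, and CATGTG occurred in Fcer1a alone and in 12.3% of all windows. The longer motifs AGATAA (Cpa3, Fcer1a and Ms4a2) and TGATAA (Mcpt4) contain GATAA and occurred in 9.99% and 7.94% of windows. Cma1 held neither of the longer motifs. A match is a description of the letters, and no binding was measured.

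The proteases were among the more abundant transcripts of the tumours. Levels of different genes were compared on the deposited FPKM scale, which is per length. Median FPKM over the 42 tumours was 158 for Tpsb2, above 96.1% of the tested genes. Cma1 had a median FPKM of 85.6, Mcpt4 of 81.5 and Cpa3 of 57.9, each above at least 88.7% of the tested genes. The receptor, enzyme and transcription factor genes were lower, with median FPKM of 7.19 for Fcer1a, 6.91 for Gata2, 5.65 for Hdc, 5.13 for Kit and 1.91 for Ms4a2. Tpsb2 was the highest of the 9 in 42 of 42 libraries, and Ms4a2 was the lowest in all 42. The order between neighbours was less regular. Mcpt4 was above Cma1 in 19 of 42 libraries, and Cpa3 was above Mcpt4 in 14 of 42.

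All values that follow are deposited gene values, which are comparable for 1 gene across libraries, and differences are on the scale of log2(value + 1). Replicate numbers name animals and pair nothing. Group levels are means ± SD over 3 tumours on that log2 scale, and differences between groups are given ± SE.

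Tpsb2, the most abundant tryptase gene here, had deposited values of 1565, 3163 and 2878 in the vehicle tumours of day 1, 1746, 2228 and 2284 on day 7 and 5833, 2184 and 4539 on day 14. Under BXCL701 the lowest, median and highest values were 910.3, 2125 and 5208 on day 1, 1972, 3466 and 4746 on day 7 and 1220, 2687 and 5492 on day 14. The drug and vehicle ranges overlapped on each day. The log2 level of Tpsb2 on day 1 was 11.24 ± 0.55 with vehicle and 11.21 ± 0.79, 10.24 ± 0.70 and 11.83 ± 0.46 at 1, 8 and 16 h of BXCL701. On day 7 it was 11.02 ± 0.21 with vehicle and 11.21 ± 0.27, 11.90 ± 0.10, 11.83 ± 0.55 and 11.64 ± 0.57 at 0, 1, 8 and 16 h. On day 14 the corresponding Tpsb2 levels were 11.92 ± 0.74 with vehicle and 11.73 ± 0.44, 11.57 ± 0.47, 11.69 ± 1.25 and 11.07 ± 0.10. Its lowest group was 8 h of day 1, where 2 tumours were at 913 and 910, and its highest was vehicle on day 14.

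Cma1, a chymase gene, read 747, 1714 and 1336 in vehicle tumours on day 1, 795, 1275 and 1409 on day 7 and 4094, 1054 and 2436 on day 14. BXCL701 tumours had lowest, median and highest values of 535, 1168 and 2218 on day 1, 876, 1727 and 2278 on day 7 and 918, 1826 and 3023 on day 14. One vehicle tumour of day 14 exceeded every BXCL701 tumour, and the other two lay within their range. Cma1 on day 1 was 10.23 ± 0.61 with vehicle and 10.05 ± 0.74, 9.48 ± 0.62 and 10.74 ± 0.33 at 1, 8 and 16 h on the log2 scale. Day 7 gave 10.14 ± 0.44 with vehicle and 10.32 ± 0.47, 10.84 ± 0.21, 10.72 ± 0.55 and 10.71 ± 0.64 at 0, 1, 8 and 16 h. Day 14 gave 11.10 ± 0.99 with vehicle and 10.87 ± 0.32, 11.16 ± 0.28, 10.93 ± 0.94 and 10.25 ± 0.08 for Cma1. The lowest group was again 8 h of day 1, and the 16 h group of day 14 was the least variable.

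Mcpt4, the second chymase gene, had values of 854, 1451 and 1202 with vehicle on day 1, 489, 1263 and 1776 on day 7 and 3586, 938 and 3059 on day 14. With BXCL701 the lowest, median and highest were 549.9, 899.6 and 1956 on day 1, 604, 1312 and 2171 on day 7 and 864, 1480 and 2040 on day 14. On day 14 both the first and the third vehicle tumours were above all 12 BXCL701 tumours, while the second lay near their lower end. In log2 terms Mcpt4 was 10.16 ± 0.39 with vehicle on day 1 and 10.05 ± 0.71, 9.66 ± 0.69 and 10.34 ± 0.56 at 1, 8 and 16 h. It was 10.01 ± 0.96 with vehicle on day 7 and 9.91 ± 0.59, 10.37 ± 0.48, 10.26 ± 0.77 and 10.26 ± 0.94 at 0, 1, 8 and 16 h. On day 14 Mcpt4 was 11.09 ± 1.06 with vehicle and 10.46 ± 0.46, 10.81 ± 0.18, 10.43 ± 0.57 and 10.14 ± 0.57 at those hours. Among its 50-base windows, 5.48% are shared with another gene, chiefly Cma2, and 5.38% of those of Cma1 are shared, chiefly with Gm48934. A small part of the Mcpt4 value may thus come from Cma2, and of the Cma1 value from Gm48934.

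Cpa3, the carboxypeptidase gene, read 748, 1125 and 1186 in vehicle tumours on day 1, 866, 1526 and 1364 on day 7 and 4493, 901 and 2067 on day 14. In BXCL701 tumours the lowest, median and highest were 477, 1149 and 2255 on day 1, 1089, 1660 and 2667 on day 7 and 941, 1737 and 3728 on day 14. The first vehicle tumour of day 14 was the highest of all 42, and the second was below all 12 BXCL701 tumours of its day. Cpa3 stood at 9.97 ± 0.36 with vehicle on day 1 and at 9.91 ± 0.60, 9.39 ± 0.68 and 10.76 ± 0.33 at 1, 8 and 16 h on the log2 scale. Vehicle tumours of day 7 averaged 10.25 ± 0.43, and BXCL701 tumours 10.49 ± 0.39, 10.84 ± 0.51, 10.47 ± 0.56 and 11.04 ± 0.48 at 0, 1, 8 and 16 h. Those of day 14 averaged 10.99 ± 1.16 with vehicle and 10.83 ± 0.44, 11.35 ± 0.55, 10.89 ± 0.88 and 10.43 ± 0.13 with BXCL701. The 3 lowest of the 14 Cpa3 group means were all from day 1.

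Fcer1a, which encodes the IgE-binding chain, had values of 62.8, 63.2 and 147 with vehicle on day 1, 85.9, 109.9 and 71.8 on day 7 and 531, 80.4 and 149 on day 14. With BXCL701 its lowest, median and highest were 49.9, 102 and 267 on day 1, 75.3, 119.6 and 208 on day 7 and 80.6, 129.6 and 385 on day 14. It had the widest range of the 9, with a ratio of highest to lowest tumour of 10.7. Fcer1a was at 6.40 ± 0.70 with vehicle on day 1 and at 6.17 ± 0.49, 6.12 ± 0.77 and 7.62 ± 0.39 at 1, 8 and 16 h. The day 7 levels were 6.47 ± 0.31 with vehicle and 6.88 ± 0.09, 7.02 ± 0.65, 6.83 ± 0.76 and 7.24 ± 0.47 at 0, 1, 8 and 16 h. The day 14 levels were 7.55 ± 1.38 with vehicle and 7.38 ± 0.79, 7.75 ± 0.88, 7.58 ± 1.02 and 6.58 ± 0.20. All 3 tumours at 16 h on day 1 were above the 3 vehicle tumours of that day.

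Ms4a2, which encodes the signal-amplifying chain of the receptor, was the least abundant of the 9, at 42.9, 28.2 and 71.7 with vehicle on day 1, 58.8, 120.0 and 80.8 on day 7 and 139.8, 43.6 and 87.1 on day 14. BXCL701 tumours gave a lowest, median and highest Ms4a2 value of 30.7, 63 and 96.4 on day 1, 33.7, 75.9 and 129 on day 7 and 35.5, 80.8 and 153 on day 14. The drug and vehicle tumours overlapped on all 3 days. On the log2 scale Ms4a2 was 5.50 ± 0.66 with vehicle on day 1 and 5.60 ± 0.42, 5.44 ± 0.76 and 6.24 ± 0.32 at 1, 8 and 16 h. For day 7 it was 6.39 ± 0.51 with vehicle and 6.08 ± 0.79, 6.07 ± 0.96, 5.79 ± 0.64 and 6.84 ± 0.10 at 0, 1, 8 and 16 h. For day 14 it was 6.36 ± 0.83 with vehicle and 6.33 ± 0.38, 6.36 ± 0.88, 6.12 ± 0.81 and 6.19 ± 0.43. At these low values the log2(value + 1) scale understates differences slightly.

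Hdc, the gene of the histamine-making enzyme, had values of 135, 224 and 151 with vehicle on day 1, 158, 230.5 and 281 on day 7 and 272, 63.8 and 402 on day 14. In BXCL701 tumours Hdc ran, as lowest, median and highest, 154, 245 and 339 on day 1, 147, 265 and 326 on day 7 and 179.7, 288 and 477 on day 14. The vehicle tumours of day 14 held the lowest Hdc value of all 42 and also one of the highest. Hdc on day 1 was 7.39 ± 0.38 with vehicle and 7.86 ± 0.48, 7.58 ± 0.41 and 8.10 ± 0.19 at 1, 8 and 16 h. Its log2 level on day 7 was 7.77 ± 0.42 with vehicle and 7.41 ± 0.28, 8.12 ± 0.07, 7.99 ± 0.56 and 7.93 ± 0.35 at 0, 1, 8 and 16 h. Its log2 level on day 14 was 7.59 ± 1.39 with vehicle and 8.32 ± 0.37, 8.46 ± 0.40, 7.73 ± 0.04 and 8.05 ± 0.49. The SD of the vehicle group on day 14 was the largest of the 14 groups for Hdc.

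Kit, the receptor gene, read 345, 109.7 and 357 in vehicle tumours on day 1, 324, 627 and 439.8 on day 7 and 586, 268 and 406 on day 14. Under BXCL701 Kit had a lowest, median and highest value of 264, 290.1 and 612 on day 1, 80.3, 448 and 739.9 on day 7 and 150.1, 413 and 683 on day 14. Single low tumours stood out in 3 groups: vehicle on day 1, 8 h on day 7 and 1 h on day 14. On the log2 scale Kit was 7.90 ± 0.96 with vehicle on day 1 and 8.14 ± 0.05, 8.50 ± 0.66 and 8.87 ± 0.23 at 1, 8 and 16 h. Kit on day 7 was 8.81 ± 0.48 with vehicle and 8.95 ± 0.54, 8.63 ± 0.86, 7.91 ± 1.38 and 8.80 ± 0.03 at 0, 1, 8 and 16 h. Kit on day 14 was 8.65 ± 0.56 with vehicle and 8.80 ± 0.40, 8.52 ± 1.14, 8.94 ± 0.38 and 8.50 ± 0.34. Kit is also made by melanocytes. Of 5 melanocyte genes, 3 had medians near 0 over the 42 tumours, 0.54 for Mlana, 0.57 for Dct and 0.06 for Tyrp1. The summed value of all 5, which includes Pmel and Tyr, had group medians from 3.35 (BXCL701 at 16 h on day 7) to 144 (vehicle on day 1). In vehicle tumours of day 1 the summed value of 5 melanocyte genes was 22.9 to 344, against 6.08 to 59.8 in those of day 14. With BXCL701 on day 1 it was 13.5 to 117 at 1 h, 6.99 to 33.7 at 8 h and 8.18 to 58.8 at 16 h. Single BXCL701 tumours of day 7 reached 113 at 0 h and 203 at 16 h. The part of melanocytes in the Kit differences from day 1 was not tested.

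Gata2, the transcription factor gene, varied least, with a ratio of highest to lowest tumour of 2.89. Its values were 216, 208 and 305 with vehicle on day 1, 282, 447 and 317 on day 7 and 322, 287 and 355 on day 14. The lowest, median and highest with BXCL701 were 155, 241 and 429 on day 1, 168, 274 and 333 on day 7 and 205, 315 and 355 on day 14. Vehicle and BXCL701 values overlapped on all 3 days. In log2 terms Gata2 was 7.91 ± 0.30 with vehicle on day 1 and 7.60 ± 0.16, 7.84 ± 0.52 and 8.59 ± 0.15 at 1, 8 and 16 h. Gata2 on day 7 was 8.42 ± 0.35 with vehicle and 8.10 ± 0.21, 7.86 ± 0.40, 8.17 ± 0.18 and 8.14 ± 0.13 at 0, 1, 8 and 16 h. Gata2 on day 14 was 8.33 ± 0.15 with vehicle and 8.27 ± 0.33, 8.34 ± 0.16, 8.16 ± 0.42 and 8.10 ± 0.16. The 16 h group of day 1 was the highest, and its tumours lay above all vehicle tumours of day 1.

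**Figure D1:**
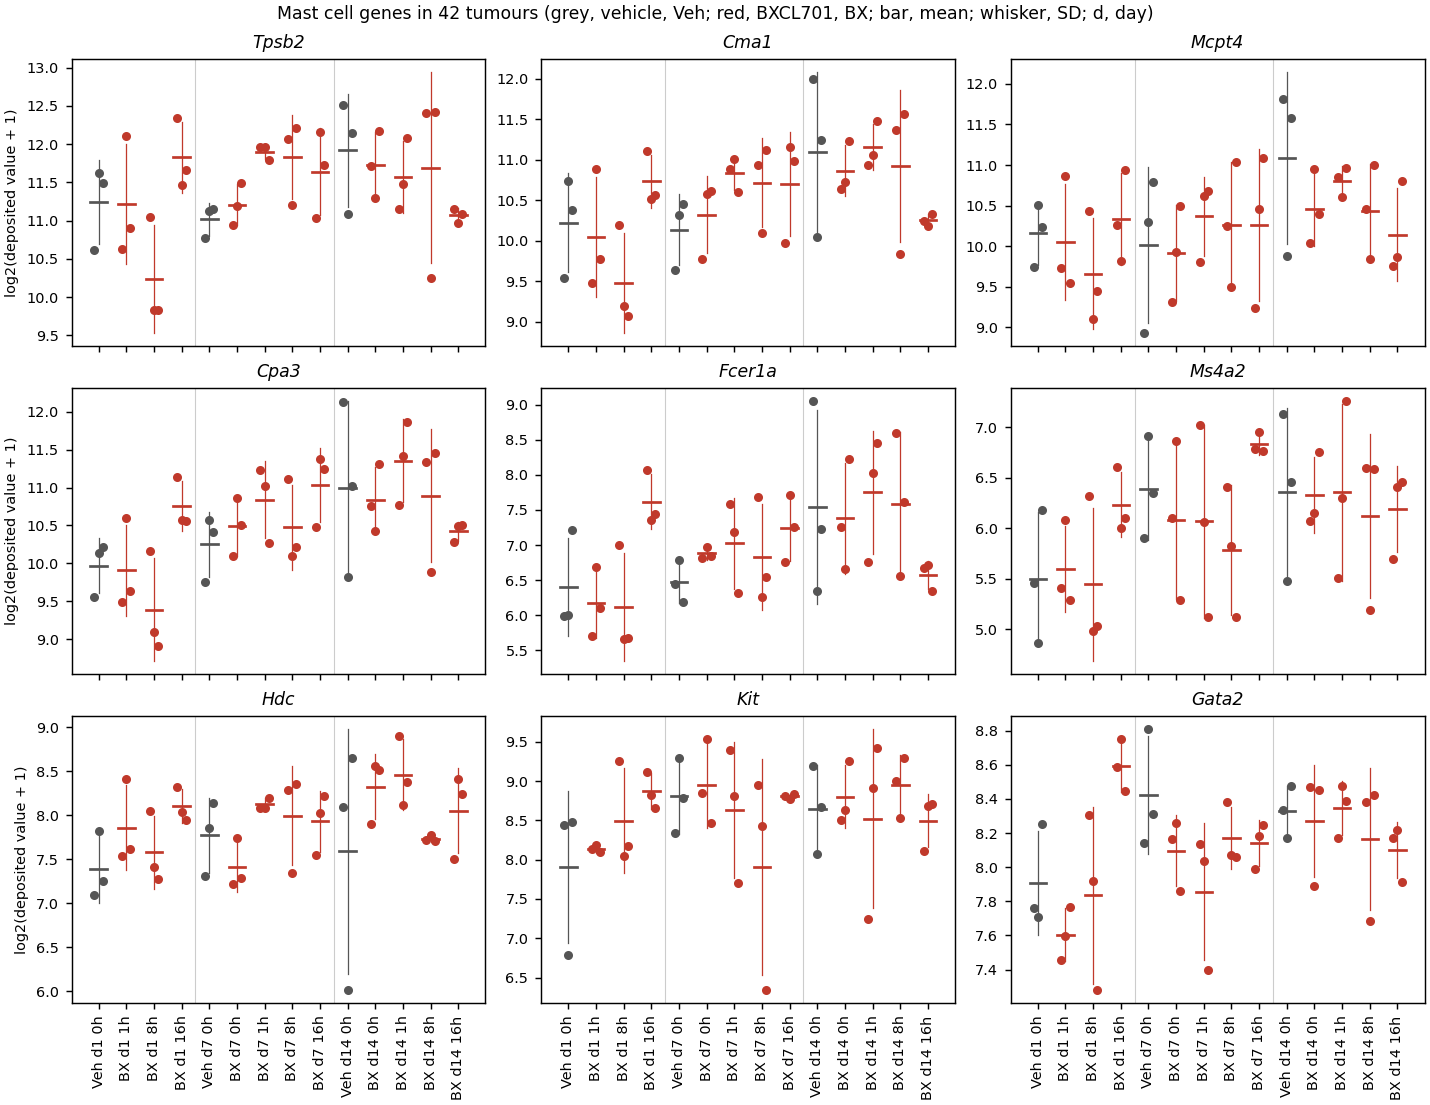
Level of each of the 9 genes, as log2(deposited value + 1), in the 14 groups ordered by day and hour. Each point is 1 tumour, bars are means and whiskers are SD over 3 tumours; the wide vehicle group of day 14 for Cpa3, Cma1, Fcer1a and Hdc and the low 8 h group of day 1 for Tpsb2, Cpa3 and Cma1 can be seen.

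None of the 9 genes passed the test for a difference between BXCL701 and vehicle on any day. The test was limma over all 16613 genes with Benjamini-Hochberg adjustment and a threshold of 0.05. On day 14, with 12 BXCL701 and 3 vehicle tumours, 0 of 9 passed and 0 of 9 had an unadjusted p below 0.05, while 3.29% of all tested genes passed and 17.8% had an unadjusted p below 0.05. The median difference of the 9 was -0.11 on the log2 scale, with 7 lower and 2 higher, and that of all tested genes was -0.01. The largest differences were those of Mcpt4, -0.63 ± 0.42 (95% interval -1.48 to 0.23; limma adjusted p = 0.474), and of Hdc, 0.55 ± 0.32 (95% interval -0.11 to 1.22; limma adjusted p = 0.392). The other proteases differed by -0.40 ± 0.37 (Tpsb2), -0.30 ± 0.36 (Cma1) and -0.11 ± 0.36 (Cpa3). Fcer1a differed by -0.22 ± 0.45, Ms4a2 by -0.11 ± 0.41, Kit by 0.04 ± 0.43 and Gata2 by -0.11 ± 0.19. The narrowest 95% interval was that of Gata2, -0.49 to 0.27, that of Cpa3 ran from -0.85 to 0.63, and differences within such bounds were not separated from 0 with 3 vehicle tumours. Single vehicle tumours decided several of these signs and sizes. Without the first vehicle tumour of day 14, the differences were 0.46 for Cpa3, 0.53 for Fcer1a, 0.28 for Ms4a2, 0.32 for Kit and 0.16 for Cma1, and those of Mcpt4 and Tpsb2 shrank to -0.27 and -0.11. Without the second, all 9 were below 0, with -1.23 for Mcpt4, -0.82 for Cma1 and for Fcer1a, -0.81 for Tpsb2, -0.70 for Cpa3, -0.55 for Ms4a2, -0.24 for Kit and -0.23 for Hdc, and none passed. Without the third, Hdc passed the test, with a difference of 1.09 ± 0.34 (limma adjusted p = 0.0353), in a fit in which 2021 genes passed.

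On day 7, again with 12 tumours against 3, 0 of 9 passed and 0 of 9 had an unadjusted p below 0.05, against 0.00602% and 9.87% of all tested genes. Of the 9 genes, 6 were higher and 3 lower, with a median of 0.19 against -0.03 for all tested genes. Tpsb2 differed by 0.63 ± 0.37 (95% interval -0.12 to 1.37; limma adjusted p = 0.496). The other estimates were 0.52 ± 0.45 for Fcer1a, 0.51 ± 0.36 for Cma1, 0.46 ± 0.36 for Cpa3, 0.19 ± 0.42 for Mcpt4 and 0.10 ± 0.32 for Hdc. Those below 0 were -0.36 ± 0.19 for Gata2, -0.23 ± 0.43 for Kit and -0.20 ± 0.41 for Ms4a2. Without the first vehicle tumour of day 7, Mcpt4 was -0.35 and Hdc -0.13, and without the second, Kit was 0.01 and Ms4a2 0.07. By hour, a few genes did not overlap with the 3 vehicle tumours at 0, 1 and 8 h, and none did so at 16 h. Tpsb2 and Cma1 were higher without overlap at 1 h, 2 of 9 against 5.66% of all tested genes. At 8 h Tpsb2 alone was so, 1 of 9 against 15.2%. Gata2 was lower without overlap at 1 h (1 of 9 against 5.71%), and Fcer1a higher at 0 h (1 of 9 against 3.36%). These shares count genes whose 2 sets of 3 values do not overlap. The counts were not tested against the shares, and none of these members passed the limma test.

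On day 1, with 9 tumours against 3, 0 of 9 passed and 0 of 9 had an unadjusted p below 0.05, against 0% and 2.63% of all tested genes. Kit differed by 0.60 ± 0.44 (95% interval -0.30 to 1.49; limma adjusted p = 0.906) and Hdc by 0.46 ± 0.33. The Kit difference was 0.04 without the second vehicle tumour of day 1. The remaining estimates lay between -0.15 for Tpsb2 and 0.26 for Ms4a2. With 6 higher and 3 lower, the median was 0.10 against 0.03 for all tested genes.

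The hour at which treatment and vehicle could be compared without a difference in hour was 0 h on days 7 and 14, with 6 tumours against 6. Here 0 of 9 passed and 0 of 9 had an unadjusted p below 0.05, against 0.512% and 10.8% of all tested genes. The 9 differences had a median of 0.00 and ran from -0.36 ± 0.37 for Mcpt4 (95% interval -1.13 to 0.40) to 0.19 ± 0.29 for Hdc (95% interval -0.40 to 0.78). Tpsb2 differed by 0.00 ± 0.33 (95% interval -0.67 to 0.67) and Cpa3 by 0.04 ± 0.32 (95% interval -0.62 to 0.70). These tumours are also part of the day 7 and day 14 comparisons, so the results are not independent of them. Whether the treatment difference itself changed between days was tested as an interaction in the same limma fit, and 0 of 9 genes passed for any pair of days, against 0% of all tested genes for each pair. The smallest adjusted p belonged to Tpsb2, whose difference on day 14 minus that on day 7 was -1.03 ± 0.52 (limma adjusted p = 0.333).

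**Figure D2:**
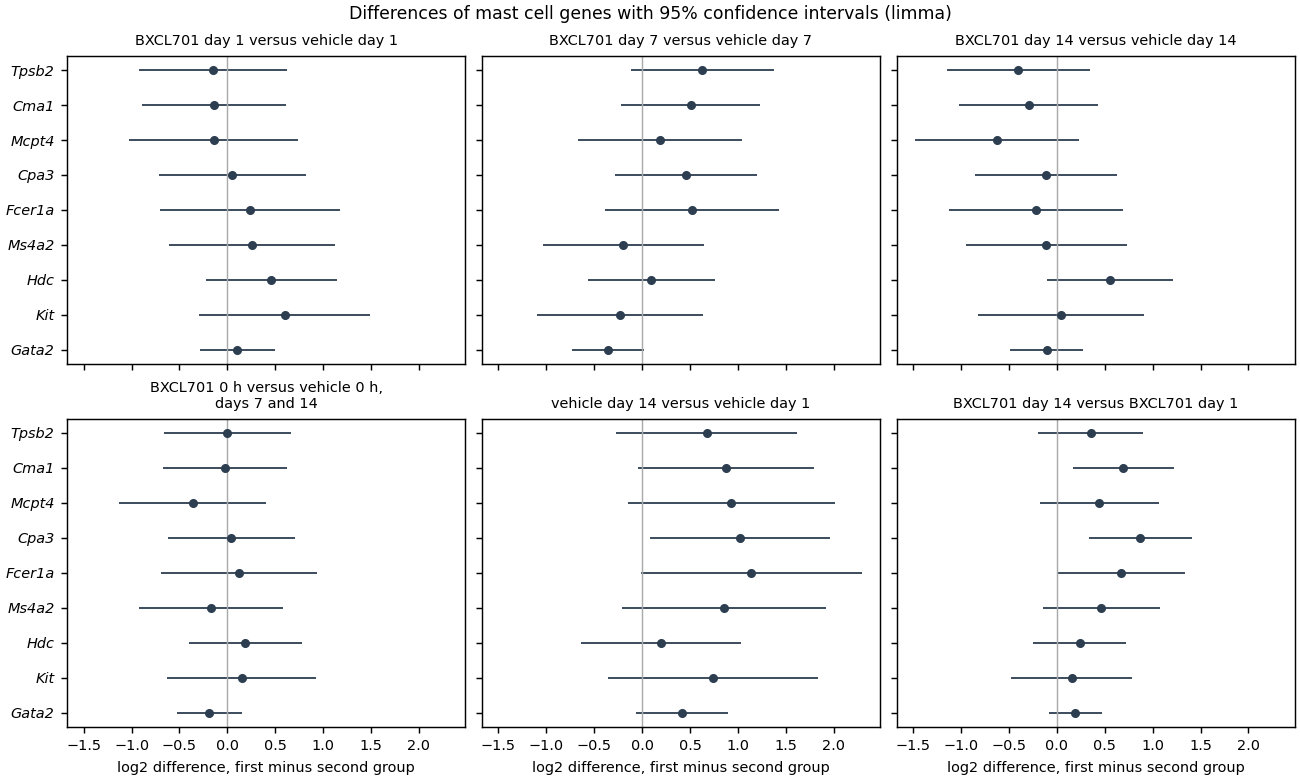
Differences in log2(value + 1) of the 9 genes in 6 comparisons, as limma estimates (points) with unadjusted 95% confidence intervals (lines). No gene passed the adjusted threshold of 0.05 in any panel; in the 2 panels that compare day 14 with day 1, every point lies to the right of 0.

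Comparison over time gave higher estimates for all 9 genes on day 14 than on day 1 in both arms, and none passed the test. In vehicle tumours, 3 against 3, 0 of 9 passed and 1 of 9, Cpa3, had an unadjusted p below 0.05, against 0.0602% and 12% of all tested genes. The median was 0.86 (-0.00 for all tested genes, of which 49.7% were higher). The estimates were 1.14 ± 0.56 for Fcer1a (limma adjusted p = 0.42) and 1.02 ± 0.46 for Cpa3 (limma adjusted p = 0.371). They were 0.93 ± 0.53 for Mcpt4, 0.87 ± 0.45 for Cma1, 0.86 ± 0.52 for Ms4a2, 0.74 ± 0.54 for Kit, 0.67 ± 0.46 for Tpsb2, 0.42 ± 0.24 for Gata2 and 0.20 ± 0.41 for Hdc. The vehicle tumours of day 14 weighed on these values in opposite directions. Without the first the estimates were 0.45 for Cpa3, 0.39 for Fcer1a and 0.57 for Mcpt4, and without the second they were 1.61, 1.74 and 1.54. Hdc was -0.05 without the first and -0.33 without the third, so its direction rested on them. Kit was 0.19 without the second vehicle tumour of day 1. Between the same vehicle tumours all 12 skeletal muscle genes were lower on day 14 (median -1.44) and so were all 5 melanocyte genes (median -2.63), with 0 of either list passing, and their part in the estimates was not tested.

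In BXCL701 tumours at 1, 8 and 16 h, 9 against 9, 0 of 9 passed and 3 of 9 had an unadjusted p below 0.05, against 1.27% and 18.1% of all tested genes. Cpa3 was at 941, 1751 and 3728 (lowest, median and highest) on day 14 and at 477, 1149 and 2255 on day 1, with overlapping ranges. Its difference was 0.87 ± 0.27 (95% interval 0.33 to 1.41; limma adjusted p = 0.0849). Cma1 differed by 0.69 ± 0.26 (limma adjusted p = 0.159) and Fcer1a by 0.67 ± 0.33 (limma adjusted p = 0.272). The other 6 estimates lay between 0.15 for Kit and 0.46 for Ms4a2, and the median of the 9 was 0.44 (-0.00 for all tested genes, of which 49.9% were higher). Without the second BXCL701 tumour of day 14 at 8 h, Cpa3 passed the test, with a difference of 1.04 ± 0.26 (limma adjusted p = 0.0377). Markers of other cells also differed between the same tumours. Of 12 neutrophil genes 11 were higher and 7 passed as higher, with a median of 1.18 for the list (0.572% of all tested genes passed in that direction). All 8 adipocyte genes were higher (median 1.12, 1 passed) and all 12 keratinocyte genes lower (median -1.98, 0 passed), and their part in the mast cell genes was not tested. Day 7 against day 1 of BXCL701 shares the tumours of day 1 with this comparison. There, too, 0 of 9 passed (0.12% of all tested genes), and the estimates were 0.77 ± 0.27 for Cpa3, 0.70 ± 0.27 for Tpsb2 and 0.66 ± 0.26 for Cma1. Each of the 3 had an unadjusted p below 0.05 and a limma adjusted p of at least 0.154. The share of all tested genes with such an unadjusted p is not given for this comparison, so the 3 of 9 cannot be set against it.

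On day 1 the group means of all 9 genes were highest at 16 h, and those of 6 genes were lowest at 8 h, without passing the test. At 16 h all 9 genes were higher than in the vehicle tumours of day 1, with a median of 0.71 against 0.02 for all tested genes, of which 51.8% were higher. Kit, Cpa3, Fcer1a, Hdc and Gata2 were higher without overlap, 5 of 9 against 6.31% of all tested genes, yet 0 of 9 passed (0.012% of all tested genes), with limma adjusted p-values of 0.956 to 0.967. Markers of other tissue and cells differed between the same tumours. The summed value of 12 skeletal muscle genes was 1020 to 17370 at 16 h and 12152 to 61826 with vehicle. That of 12 neutrophil genes was 5605 to 8341 and 2899 to 7233, and the part of either in the mast cell genes was not tested. At 8 h, 7 of 9 were lower than vehicle, and Tpsb2 had the estimate furthest from 0, a fold of 0.499 with a log2 interval (95%) of -1.95 to -0.06 (limma unadjusted p = 0.0378, adjusted p = 0.285). At 8 h, too, 0 of 9 passed, against 0% of all tested genes.

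The contrast of 16 h with 8 h of day 1 was added after the group levels had been seen and is given as a description of them. All 9 genes were higher at 16 h, with a median of 0.79 against 0.00 for all tested genes. Tpsb2 was at 5208, 2834 and 3241 at 16 h and at 2125, 913 and 910.3 at 8 h, a difference of 1.59 ± 0.46 (limma adjusted p = 0.192). Fcer1a differed by 1.50 ± 0.56, Cpa3 by 1.37 ± 0.46, Cma1 by 1.25 ± 0.45 and Gata2 by 0.76 ± 0.24. These 5 genes were higher at 16 h without overlap, which held for 18.6% of all tested genes, and 0 of 9 passed (0.175% of all tested genes). Markers of neighbouring tissue also differed between these tumours. The summed value of 12 skeletal muscle genes was 20333 to 59967 at 8 h and 1020 to 17370 at 16 h, and the part of this in the mast cell genes was not tested.

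Harvest hour on days 7 and 14 was compared at 8 h against 0 h within BXCL701, with 6 tumours each. Here 0 of 9 passed and 0 of 9 had an unadjusted p below 0.05, against 0.132% and 9.16% of all tested genes. The estimates ran from -0.45 ± 0.38 for Kit to 0.29 ± 0.33 for Tpsb2, with a median of 0.02 against -0.04 for all tested genes.

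Over all 28 comparisons, 0 of 252 pairs of gene and comparison passed.

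The 9 genes varied together from tumour to tumour in different degrees. Correlations are given as Pearson's r of log2(value + 1) over the 42 tumours, which share group, depth scaling and tissue makeup, and they are descriptions. Cma1 had an r of 0.93 with Tpsb2 and with Cpa3. Cpa3 had an r of 0.90 with Fcer1a and 0.84 with Tpsb2, and Mcpt4 had 0.80 with Cma1. Kit had an r of 0.81 with Ms4a2, 0.58 with Fcer1a and 0.52 with Cpa3, 0.24 with Cma1, 0.21 with Tpsb2, 0.08 with Hdc and 0.04 with Mcpt4. Without the 2 tumours farthest from the median of Kit, its r was 0.61 with Cpa3, 0.47 with Cma1, 0.45 with Tpsb2 and 0.23 with Mcpt4. Gata2 lay between, from 0.23 with Hdc to 0.66 with Fcer1a and with Ms4a2.

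**Figure D3:**
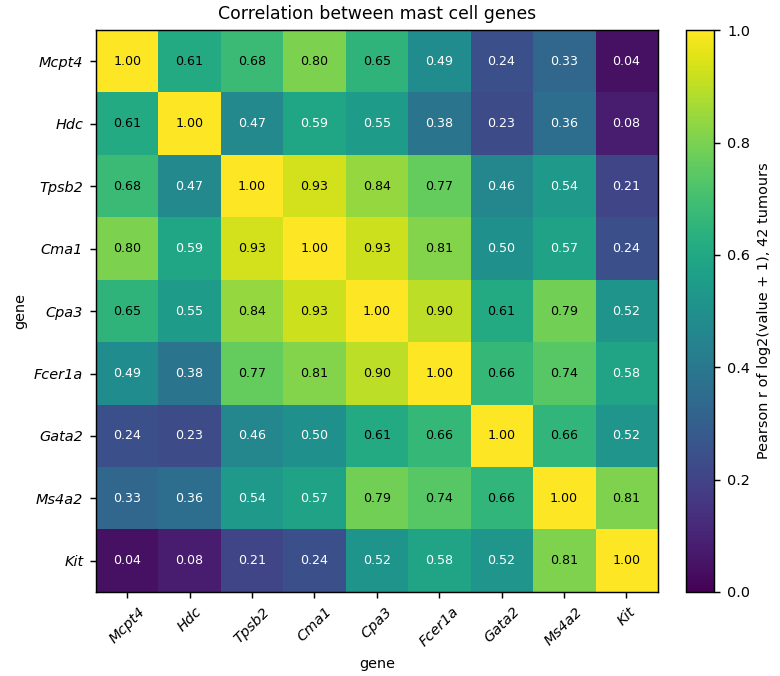
Pearson correlations of log2(value + 1) between the 9 genes over 42 tumours, with colour and number giving r. The block of Tpsb2, Cma1, Cpa3 and Fcer1a has r of 0.77 to 0.93, and Kit has r of 0.04 to 0.24 with Mcpt4, Hdc, Tpsb2 and Cma1.

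Kit also moved with the balance of long and short transcripts in the libraries. Its exons span 8911 bases, the longest of the 9, against 998 for Fcer1a, the shortest. Kit had an r of 0.76 with the transcript-length index (Spearman's rho 0.56, 0.82 within groups, and 0.60 without the 2 most extreme libraries, n = 42). The libraries of lowest index were the third of BXCL701 at 8 h on day 7 (-0.41) and the second of vehicle on day 1 (-0.37), with Kit at 80.3 and 110, the lowest Kit values of all. Those of highest index were the second of vehicle on day 7 and the second of BXCL701 at 0 h on day 7 (both 0.33), with Kit at 627 and 740. Ms4a2 had an r of 0.46 with the index and Gata2 0.34, whereas Mcpt4 had -0.31, Tpsb2 -0.34 and Hdc, whose exons span 6389 bases, -0.13. With the index as a covariate the limma estimate for Kit between BXCL701 and vehicle was -0.36 in place of 0.04 on day 14, 0.45 in place of -0.23 on day 7 and 0.09 in place of 0.60 on day 1. From day 1 to day 14 of BXCL701 it was -0.01 in place of 0.15, at 8 h against 0 h -0.04 in place of -0.45, and in vehicle over time 0.55 in place of 0.74. Ms4a2 turned too, to 0.28 from -0.20 on day 7 and to -0.10 from 0.26 on day 1. None of these passed the test.

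**Figure D4:**
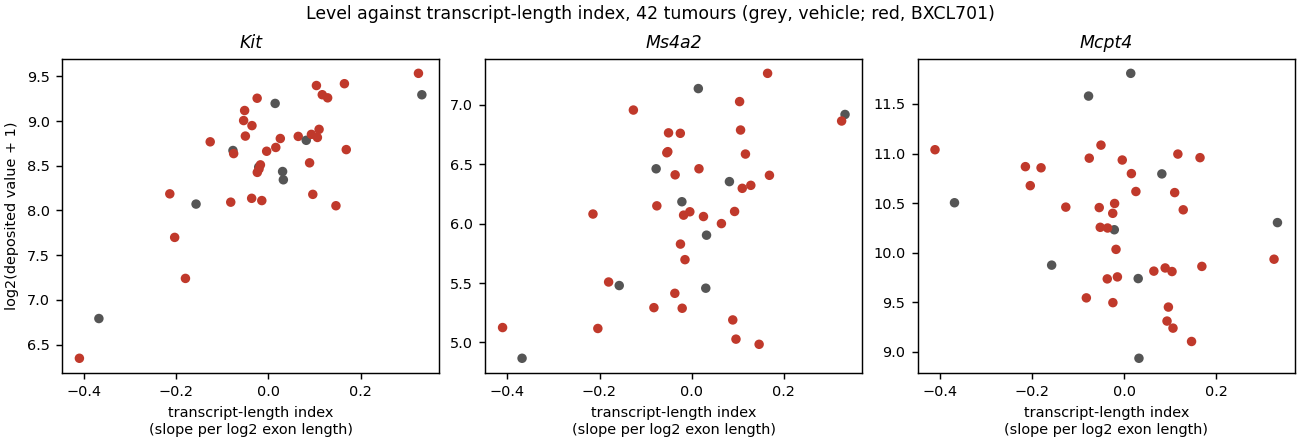
Level of Kit, Ms4a2 and Mcpt4, as log2(value + 1), against the transcript-length index of the library, 1 point per tumour (42). Kit is low in the 2 libraries of lowest index and high in the 2 of highest index; Mcpt4 shows no such rise.

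The genes most like the proteases were searched among all 16613. The measure was Pearson's r, over 42 tumours, with the mean of Cpa3, Mcpt4, Tpsb2 and Cma1 after each was centred. Among the 10 genes outside the 9 with the highest r were Tpsab1 (0.86), Tph1 (0.83), Slc30a2 (0.79), Sytl3 (0.78), Gp1ba (0.77), Tpsg1 (0.76), Rprm (0.73), Cd200r3 (0.72) and Cyp11a1 (0.72). Tpsab1 and Tpsg1 encode further mast cell tryptases, and Tph1 encodes the first enzyme of serotonin synthesis outside the brain. In the same ranking Fcer1a was at place 7 (0.81), Ms4a2 at 32 (0.61), Hdc at 34 (0.60), Gata2 at 53 (0.50) and Kit at 866 (0.28). The 4 proteases themselves define the measure and hold places 1, 2, 3 and 5. In all, 20 genes had an r above 0.7.

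Other genes of the mast cell were taken from named lists. Of 7 further mast cell proteases, 4 passed the filter on low values and 3 (Mcpt9, Cma2 and Ctsg) did not. Mcpt2, a mucosal-type chymase gene, had a lowest, median and highest value of 309, 1388 and 9936, and Mcpt1, of the same type, of 0, 37.2 and 2182. Tpsab1 had a median of 296 and Tpsg1 of 21.6. None of the 4 passed in any of the 7 main comparisons, and Mcpt1 differed by -2.92 ± 1.43 on day 14 (limma adjusted p = 0.282). The vehicle tumours of that day were far apart, with a summed value of the 7 genes of 12618, 876 and 3636. How far the Mcpt1 estimate rests on a single tumour was not tested. The lowest values of the connective tissue type were 910 for Tpsb2, 535 for Cma1, 489 for Mcpt4 and 477 for Cpa3. Its defining genes were thus detected in all 42 tumours. Of the mucosal type, Mcpt2 was also detected in all 42, with a lowest value of 309, while Mcpt1 was listed at 0 in at least 1.

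The 16 genes of the mast cell surface and granule all passed the filter, and 0 of 16 passed the test in any main comparison. They include Il1rl1, the receptor of IL-33, with a median value of 642, Srgn, the granule proteoglycan core, with 1412, and Mrgprb2, a receptor for basic secretagogues, with 46.1. From day 1 to day 14 of BXCL701, 15 of 16 were higher, with a median of 0.40. The smallest adjusted p there was that of Mitf, 0.56 ± 0.17 (limma adjusted p = 0.0805), which encodes a transcription factor of mast cells and melanocytes. Between BXCL701 and vehicle on day 14, 7 were higher and 9 lower, with a median of -0.04.

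Of 11 genes of signalling below FcεRI, 2 passed as higher on day 14. Syk, the kinase recruited to the receptor, was 0.83 ± 0.22 higher with BXCL701 than with vehicle (limma adjusted p = 0.0303), and Btk, a kinase downstream of it, 0.56 ± 0.14 higher (limma adjusted p = 0.0237). All 11 estimates were above 0, with a median of 0.30, and 2.26% of all tested genes passed in that direction. Both calls held in 21 of 24 alternative settings and were lost in the other 3: without the second vehicle tumour of day 14 (0.40, adjusted p = 0.904 for Syk and 0.33, adjusted p = 0.723 for Btk), without the first (limma adjusted p = 0.0979 and 0.0799) and with only the libraries compared (0.225 and 0.189). Syk, Btk and Lcp2 (0.53 ± 0.15, limma adjusted p = 0.052) are also made by other myeloid cells and lymphocytes. In the same comparison 11 of 12 neutrophil genes were higher, with a median of 1.49 for the list, and 7 passed as higher (1 without the second vehicle tumour). The part of neutrophils in the Syk and Btk result was not tested. Over the 42 tumours Syk had an r of 0.04 with the protease mean and Btk of 0.17. The vehicle level of these genes also differed between days. From day 1 to day 14 of vehicle, 10 of the 11 were lower and 1 higher, with a median of -0.41 and 0 passing. From day 1 to day 14 of BXCL701, 7 were lower and 4 higher, with a median of -0.02. Plcg1, the phospholipase of the pathway, fell from day 1 to day 14 of BXCL701, by 0.43 ± 0.09 (limma adjusted p = 0.0172), the only one of 11 that passed there (0.698% of all tested genes passed in that direction). That call was lost in 4 of 27 settings, with a limma adjusted p of up to 0.175.

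Of 6 genes of histamine handling, 4 passed the filter. Hrh2, the gene of the H2 receptor, rose on day 14 with BXCL701, by 0.99 ± 0.28 (limma adjusted p = 0.0417), 1 of 4 against 2.26% of all tested genes in that direction. The call held in 13 of 24 alternative settings, and without the second vehicle tumour of day 14 the difference was 0.79 (limma adjusted p = 0.638). Its r with the protease mean was 0.08. Hrh1 differed by 0.81 ± 0.26 between day 14 and day 1 of BXCL701 (limma adjusted p = 0.0976). Among the growth and priming cytokines, Il3, Il4, Il9 and Il13 were under the filter. Kitl, which encodes stem cell factor, had a lowest, median and highest value of 325, 1946 and 6883, and Il33 of 1092, 2583 and 4370. Neither these nor Tslp passed in any main comparison.

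Basophils share Fcer1a, Ms4a2, Hdc and Gata2 with mast cells, so their own markers were read beside these genes. Mcpt8, a basophil protease gene, had a median FPKM of 0.353 and Prss34, another, of 0.653. The shared genes had 1.91 (Ms4a2), 5.65 (Hdc), 6.91 (Gata2) and 7.19 (Fcer1a), and the mast cell proteases Mcpt4 and Tpsb2 had 81.5 and 158. The part of basophils in the shared genes was not tested. None of the 4 basophil genes passed in any main comparison. The mean of the basophil list had an r of 0.47 with the protease mean, and it includes Cd200r3, which is also in the mast cell list. Mcpt8 alone had an r of -0.22. Of 5 eosinophil genes, Prg2, Epx and Il5ra were under the filter, and neither Siglecf nor Ccr3 passed.

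Markers of surrounding tissue did not follow the proteases closely. The mean of the keratinocyte list had an r of -0.06 with the protease mean, that of skeletal muscle -0.01, of adipocytes -0.15, of endothelium -0.12, of melanocytes -0.08 and of fibroblasts -0.32, each over 42 tumours. Mast cells live in skin and in the tissue around a flank tumour as well as in the tumour itself. Where in the sample the measured RNA came from was not tested.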

How the data were processed

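RNA from 42 Pan02 tumours, 3 in each of 14 groups, had been sequenced. The submitters' processing notes name GRCm38, Bowtie 0.12.9 and Trimmomatic 0.36. The sources used here do not give how genes were quantified and scaled. The table the authors deposited as counts holds a scaled signal per gene, of which 99.9% of values above 0 are not whole, so no count test was run. A deposited log2 FPKM table gave levels between genes and served as an alternative, and another deposited file repeated those log2 values (largest difference 0). Columns belonging to unlisted samples numbered 0.

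The 16613 of 47729 genes that reached 10 in 3 or more libraries were analysed as log2(value + 1). All 42 libraries were fitted with 14 group coefficients (28 residual degrees of freedom) in limma 3.58.1, with trend and robust moderation, under R 4.3.3 (files read by data.table, version 1.17.8). P-values were Benjamini-Hochberg adjusted over all tested genes within each of 28 comparisons, 7 of them main and 1 added after seeing the data, and hours had equal weight. Pooled hours were given by coefficients, not by pooled libraries. The script was tested on simulated data.

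The 9 genes and 14 gene lists were chosen with earlier results of these data known. All 9 are named in every group. From each list the genes named are among the 4 of smallest p in a comparison or describe its levels, and the 10 genes most like the proteases are named, except 1 that is not reported here. Flg has 7 rows, of which the highest was used. The transcript-length index used 11487 genes whose mean was 100 or more, and an exon length was known for 99.6% of tested genes.

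Alternatives were median-of-ratios scaling, no filter, the FPKM table (pseudocount 0.1), a pseudocount of 5, only the libraries compared, tissue lists or the length index as covariates, no trend, each library left out and, added after seeing the data, 4 libraries of extreme length index left out. List genes that passed were recomputed in the same way, also after seeing the data.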

Additional observations from a re-analysis of the deposited data

Results flagged for a closer look

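Within arms of 6 to 9 tumours, 6 of 45 combinations of gene and arm held a tumour whose gap to the next exceeded Dixon's limit. The gaps were taken on the deposited values and not on the log2 scale of the other tests, on which gaps between high values are narrower. For normally distributed values chance alone marks about 1 in 20 such combinations. Whether that share holds for these values was not tested. The arms overlap, and they join groups of different days. Fcer1a was 298.88 in the third BXCL701 tumour at 0 h on day 14, the highest of the 6 BXCL701 tumours at 0 h. The first vehicle tumour of day 14 held the other 5. Among the 6 vehicle tumours of days 7 and 14 it was highest for Cpa3, at 4493.438, and for Fcer1a, at 531.072. Among all 9 vehicle tumours the same values of Cpa3 and Fcer1a stood apart, as did its Cma1 value of 4093.665. The estimates without this tumour are given beside the day 14 comparison.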

How the results depend on the processing

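Each main comparison was recomputed under 15 to 27 alternative settings, and the count of the 9 genes that passed stayed at 0 in 5 of the 7. In BXCL701 against vehicle on day 14, and in day 14 against day 1 of BXCL701, leaving out single libraries gave 0 to 1 genes: Hdc in the first, without the third vehicle tumour of day 14, and Cpa3 in the second, without the second BXCL701 tumour at 8 h on day 14. These were the only 2 calls among 1377 recomputed values, of which 101 lay on the other side of 0 from the reported estimate. Of the 96 recomputed from estimates with an unadjusted p below 0.05, 0 did. With the length index as a covariate, Cpa3 in day 14 against day 1 of BXCL701 was 0.83 (limma adjusted p = 0.0534). Counts over all genes depended more on the setting: from 1 to 2968 against 547 for treatment on day 14, from 18 to 1199 against 211 for day 14 against day 1 of BXCL701, from 1 to 807 against 85 at 0 h, and from 0 to 1018 against 10 in vehicle over time. They were 0 to 10 against 1 on day 7, 0 to 1 against 0 on day 1 and 0 to 76 against 22 for 8 h against 0 h. The cause was not tested. No paired analysis was possible because each library came from a different animal. The labels give no replicate numbers, and those used here only name tumours in record order. Depth is unknown, and 3 animals per group limit what could be detected.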
